A study of Bos taurus with 64 samples.

Results

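miR-31, miR-221 and miR-222 are microRNAs that hold back the differentiation of muscle precursor cells, and their levels in cattle skeletal muscle were followed across breed, diet and feed efficiency. They were chosen by name for that role (bta-miR-31, bta-miR-221 and bta-miR-222, given here without the species prefix), as 3 of the 1030 miRNA names in the deposited count table, and all 3 were among the 318 miRNAs that passed the filter on low counts and were tested. Satellite cells are the resident stem cells of muscle: on activation they become myoblasts, which divide, leave the cell cycle and fuse into fibres. In mouse satellite cells miR-31 keeps the transcript of the myogenic factor Myf5 untranslated, so that the cells stay quiescent. miR-221 and miR-222 are made from neighbouring genes, share a seed and fall when cultured myoblasts differentiate, where they act on the cell-cycle inhibitor p27. In the RefSeq annotation of the cattle assembly ARS-UCD2.0, MIR222 and MIR221 were both on chromosome X, with MIR31 on chromosome 8. The mature sequences were not used here.

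The tissue was whole skeletal muscle, so the measurements are of the tissue and not of sorted satellite cells. The 64 libraries fell into 8 groups of 8 steers: low-RFI and high-RFI Holstein-Friesian steers on concentrate, the same 2 classes of Holstein-Friesian steers on grass, and the 4 corresponding groups of Charolais steers. Holstein-Friesian is a dairy breed and Charolais a beef breed. RFI, residual feed intake, is what an animal eats beyond the amount predicted for its size and growth, and a low-RFI animal is the more feed-efficient. All steers were fed cut fresh perennial ryegrass for 70 days, then had 14 days of acclimatisation, then had a concentrate based on barley, with some grass silage, for a further 70 days. Diet therefore cannot be told apart from phase order or from the age of the animals. The steers in the libraries were taken from 90 Charolais and 77 Holstein-Friesian animals whose intake was recorded. The 64 libraries came from 59 animals, of which 5 were sampled in both phases.

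Total counts ran from 4795950 to 12245155 per library, with a median of 8143027. The libraries were dominated by miR-10b, which took between 19.3% and 74.5% of the counts, and the scaling factors that allow for such composition (TMM) ran from 0.511 to 2.43. All of 7 striated-muscle miRNAs (miR-1, miR-133a, miR-133b, miR-206, miR-208b, miR-499 and miR-486) were counted in 64 of 64 libraries. Presence alone cannot check the tissue label, because the erythrocyte miR-451 and the endothelial miR-126-3p were also counted in all 64. Levels are given as CPM, counts relative to the TMM-scaled library size.

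miR-221 was the most abundant of the trio, miR-222 was intermediate, and miR-31 was close to the limit of detection. miR-221 averaged 22.1 CPM ± 10.5 (SD, n = 64), which placed it 145th of the 318 tested miRNAs, on counts of 37 to 874 with a median of 164. miR-222 averaged 6.77 CPM ± 2.62 and was 187th, on counts of 11 to 307 with a median of 51. miR-31 averaged 0.673 CPM ± 0.491 and was 311th, on counts of 0 to 23 with a median of 4. Within groups, counting error alone made up 41.1% of the variance of miR-31, against 16.5% for miR-222 and 2.89% for miR-221. miR-31 had no count in 3 libraries, which were high-RFI Holstein-Friesian grass replicate 4, high-RFI Holstein-Friesian concentrate replicate 5 and high-RFI Charolais concentrate replicate 2. A count of 0 allows up to 3 counts, which is 0.490 CPM in the first of these libraries, 0.551 CPM in the next and 0.802 CPM in the last. These limits cover counting error only, because PCR copies cannot be told from separate molecules here.

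The order of the 8 groups differed between the 3 miRNAs. For miR-31 the 4 Holstein-Friesian groups came above the 4 Charolais groups. Its highest mean was 1.04 CPM ± 0.716 in high-RFI Holstein-Friesian steers on concentrate, followed by 0.916 ± 0.569 and 0.887 ± 0.596 in high-RFI and low-RFI Holstein-Friesian steers on grass and 0.720 ± 0.324 in low-RFI Holstein-Friesian steers on concentrate (SD, n = 8 each). The Charolais means were 0.545 ± 0.346 and 0.450 ± 0.348 CPM for low and high RFI on concentrate, and 0.425 ± 0.281 and 0.407 ± 0.233 CPM for low and high RFI on grass. Every gap between neighbouring groups in this order was smaller than the SD of either group.

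For miR-222 the order began with the same group, and 1 Charolais group stood among the Holstein-Friesian ones. High-RFI Holstein-Friesian steers on concentrate averaged 8.83 CPM ± 2.44, low-RFI and high-RFI Holstein-Friesian steers on grass 8.32 ± 3.59 and 7.46 ± 2.79, low-RFI Charolais steers on concentrate 7.26 ± 2.28, and low-RFI Holstein-Friesian steers on concentrate 7.17 ± 1.62 (SD, n = 8 each). The last 3 places were taken by high-RFI Charolais steers on grass with 5.59 CPM ± 2.15, high-RFI Charolais steers on concentrate with 5.22 ± 1.47 and low-RFI Charolais steers on grass with 4.34 ± 1.04. No neighbouring groups in this order differed by more than the smaller of their SDs.

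For miR-221 the 2 groups at the top were of different breeds. High-RFI Holstein-Friesian steers on concentrate averaged 29.4 CPM ± 12.05 and low-RFI Charolais steers on concentrate 28.7 ± 14.7. High-RFI and low-RFI Holstein-Friesian steers on grass followed with 22.5 ± 8.17 and 22.4 ± 11.3, then low-RFI Holstein-Friesian steers on concentrate with 21.2 ± 3.85, high-RFI Charolais steers on concentrate with 20.1 ± 12.4 and high-RFI Charolais steers on grass with 18.5 ± 5.83 (SD, n = 8 each). Low-RFI Charolais steers on grass were last with 13.7 CPM ± 3.97, and this was the 1 step in the order that exceeded the smaller SD of the neighbouring groups.

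**Figure D1:**
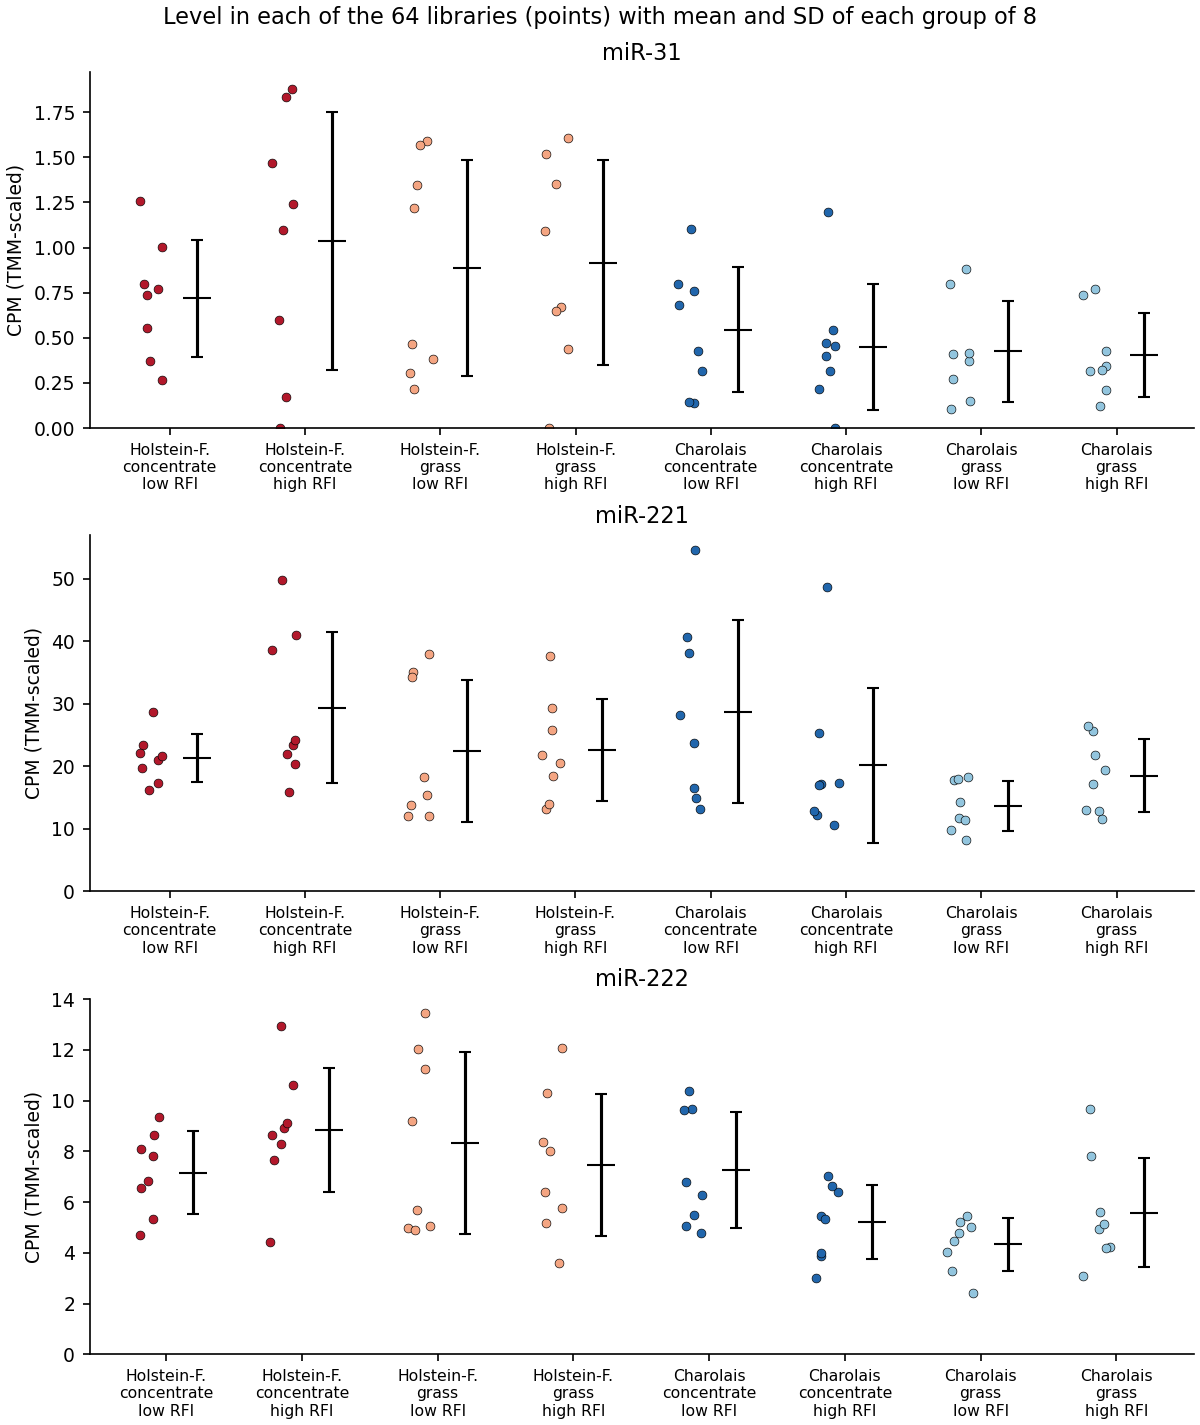
Levels of miR-31, miR-221 and miR-222 in CPM (linear axes from 0) in each of the 8 groups, with a point for each library and the mean with its SD beside it (n = 8 per group). The groups overlap throughout, and the highest miR-31 library of the Charolais groups, at 1.2 CPM, lies below 12 of the 32 Holstein-Friesian libraries.

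The breed comparison asked how muscle of a dairy breed differs from that of a beef breed. miR-31 and miR-222 were higher in Holstein-Friesian muscle, and miR-221 did not pass the test. Over both diets and RFI classes miR-31 ran from 0 through a median of 0.783 to 1.88 CPM in Holstein-Friesian libraries, and from 0 through 0.404 to 1.2 CPM in Charolais libraries. The ranges overlapped, with 24 of 32 Holstein-Friesian libraries above the Charolais median. The mean was 0.890 CPM ± 0.553 in Holstein-Friesian steers and 0.457 ± 0.296 in Charolais steers (SD, n = 32 each), a 1.88-fold difference (log2 0.91 ± 0.24 SE, edgeR adjusted p = 0.00501). In raw reads this was 277 miR-31 counts in the Holstein-Friesian libraries together and 121 in the Charolais libraries.

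miR-222 ran from 3.60 through a median of 8.07 to 13.5 CPM in Holstein-Friesian libraries, and from 2.42 through 5.18 to 10.4 CPM in Charolais libraries. The 6 highest values of all 64 libraries were Holstein-Friesian, and 25 of 32 Holstein-Friesian libraries exceeded the Charolais median. The mean was 7.94 CPM ± 2.66 in Holstein-Friesian steers and 5.60 ± 2.03 in Charolais steers (SD, n = 32 each), a 1.44-fold difference (log2 0.52 ± 0.12 SE, edgeR adjusted p = 0.00105). miR-221 ran from 12.01 through 21.7 to 49.7 CPM in Holstein-Friesian libraries and from 8.15 through 17.2 to 54.6 CPM in Charolais libraries. Its means of 23.9 CPM ± 9.53 in Holstein-Friesian steers and 20.2 ± 11.2 in Charolais steers did not differ by the test (log2 0.28 ± 0.14, edgeR adjusted p = 0.162), with 24 of 32 Holstein-Friesian libraries above the Charolais median.

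Of the 3, 2 were called in the breed average, both higher, where 21.7% of the 318 tested miRNAs were called in either direction and 11.0% were called higher. By p-value miR-222 was 10th and miR-31 21st of the 318. miR-31 had entered the test through the group where it is high: the filter needed at least 8 libraries at or above 1.23 CPM, which corresponds to 10 counts in a library of median depth, and 12 Holstein-Friesian libraries and 0 Charolais libraries met it. A miRNA admitted in this way had to differ between the breeds in these libraries, so its call is no independent support. With every miRNA that had at least 1 count in the test, its breed difference was 0.94 on the log2 scale (edgeR adjusted p = 0.00749), and over 11 alternatives the adjusted p ran from 0.000611 to 0.03. miR-221 and miR-222 met the minimum in all 64 libraries.

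On grass both miR-31 and miR-222 were higher in Holstein-Friesian steers. These libraries are part of the breed average and are no separate repeat of it. The filter limit given there for miR-31 holds here too, so its call on grass is no independent support. miR-31 ran from 0 through a median of 0.881 to 1.61 CPM in Holstein-Friesian steers, and from 0.106 through 0.358 to 0.881 CPM in Charolais steers. Of 16 Holstein-Friesian libraries 13 lay above the Charolais median and 8 above every Charolais library. The means were 0.901 CPM ± 0.563 in Holstein-Friesian steers and 0.416 ± 0.250 in Charolais steers (SD, n = 16 each), a 2.15-fold difference (log2 1.10 ± 0.33, edgeR adjusted p = 0.00828). The call was lost in limma-voom both without a block (adjusted p = 0.0593) and with the animal as a random block (0.87, adjusted p = 0.0521). Over 12 alternatives the adjusted p ran from 0.00199 to 0.0593.

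miR-222 on grass ran from 3.60 through 7.21 to 13.5 CPM in Holstein-Friesian steers, and from 2.42 through 4.86 to 9.66 CPM in Charolais steers. All but 1 of the Holstein-Friesian libraries (15 of 16) exceeded the Charolais median. The means were 7.89 CPM ± 3.14 in Holstein-Friesian steers and 4.96 ± 1.75 in Charolais steers (SD, n = 16 each), a 1.60-fold difference (log2 0.68 ± 0.17, edgeR adjusted p = 0.00207). miR-221 on grass had means of 22.5 CPM ± 9.55 in Holstein-Friesian steers and 16.1 ± 5.42 in Charolais steers, and its log2 difference of 0.50 ± 0.20 fell just outside the threshold (edgeR adjusted p = 0.0513). For miR-221, 10 of 16 Holstein-Friesian libraries were above the Charolais median and 5 above every Charolais library. On grass 30.2% of the 318 miRNAs were called and 14.8% were called higher in Holstein-Friesian steers, and of the trio 2 of 3, both higher. One of these, miR-31, had entered the test through Holstein-Friesian libraries only.

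On concentrate none of the 3 was called by edgeR, against 1.57% of the 318 miRNAs. miR-31 averaged 0.878 CPM ± 0.561 in Holstein-Friesian steers and 0.498 ± 0.339 in Charolais steers (SD, n = 16 each), with a log2 difference of 0.72 ± 0.35 (edgeR adjusted p = 0.257). miR-222 averaged 8.00 CPM ± 2.17 in Holstein-Friesian steers and 6.24 ± 2.13 in Charolais steers (log2 0.37 ± 0.17, edgeR adjusted p = 0.257). Before adjustment both had an edgeR p under 0.05 (0.0416 for miR-31 and 0.0298 for miR-222), and neither was called by DESeq2 or limma-voom. miR-221 averaged 25.3 CPM ± 9.60 in Holstein-Friesian steers and 24.4 ± 13.8 in Charolais steers (log2 0.05 ± 0.20, edgeR adjusted p = 0.923).

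Whether the breed difference itself depended on diet was tested as an interaction. The breed difference was smaller on concentrate than on grass by -0.44 ± 0.28 for miR-221, -0.31 ± 0.23 for miR-222 and -0.38 ± 0.48 for miR-31 on the log2 scale. None of the 3 was called (edgeR adjusted p = 0.355, 0.436 and 0.625, with no unadjusted p under 0.05), where 3.46% of the 318 miRNAs were. A breed difference called on grass and not on concentrate was therefore not shown to differ between the diets.

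Some markers of other cell types were called between the breeds on grass. In this comparison 30.2% of the 318 miRNAs were called, and 14.8% were called higher in Holstein-Friesian steers. Of 4 fibroblast miRNAs 4 were called higher in Holstein-Friesian steers (miR-21-5p 0.75, miR-199a-3p 0.65, miR-214 0.64 and miR-199a-5p 0.60 on the log2 scale), and their summed level ran from 1679 through 2504 to 7894 CPM in Holstein-Friesian steers on grass and from 1460 through 1643 to 4394 CPM in Charolais steers on grass. The endothelial miR-126-3p (0.34) and the smooth muscle miR-143 (0.47) were also called higher, 1 of 2 markers each, and so were 2 of 7 leukocyte miRNAs (miR-146a 0.95 and miR-155 0.62). Of the other leukocyte miRNAs, miR-150 had -0.31 and miR-342 -0.20, with no call (edgeR adjusted p = 0.149 and 0.0513). Of 2 erythrocyte miRNAs 0 were called by edgeR, with 0 at an unadjusted p under 0.05. Their part in the breed difference of miR-31 and miR-222 was not tested. Of 7 epithelial markers 1 was tested, miR-141, with no call. In all libraries together miR-141 had 1308 counts (in 64 libraries), miR-205 258 (in 51) and miR-200c 74 (in 37). For miR-200a, miR-200b and miR-429 there were 32, 17 and 12 counts. In bulk muscle, a lower share of cells that make a miRNA and less of it per cell cannot be told apart.

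Without the 2 Holstein-Friesian grass libraries highest in miR-143, a choice made after seeing the data, the differences on grass were 1.06 for miR-31 (edgeR adjusted p = 0.0173), 0.55 for miR-222 (0.0127) and 0.34 for miR-221 (0.282). Over all alternatives on grass the adjusted p ran from 0.000323 to 0.0127 for miR-222 and from 0.0118 to 0.282 for miR-221.

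**Figure D2:**
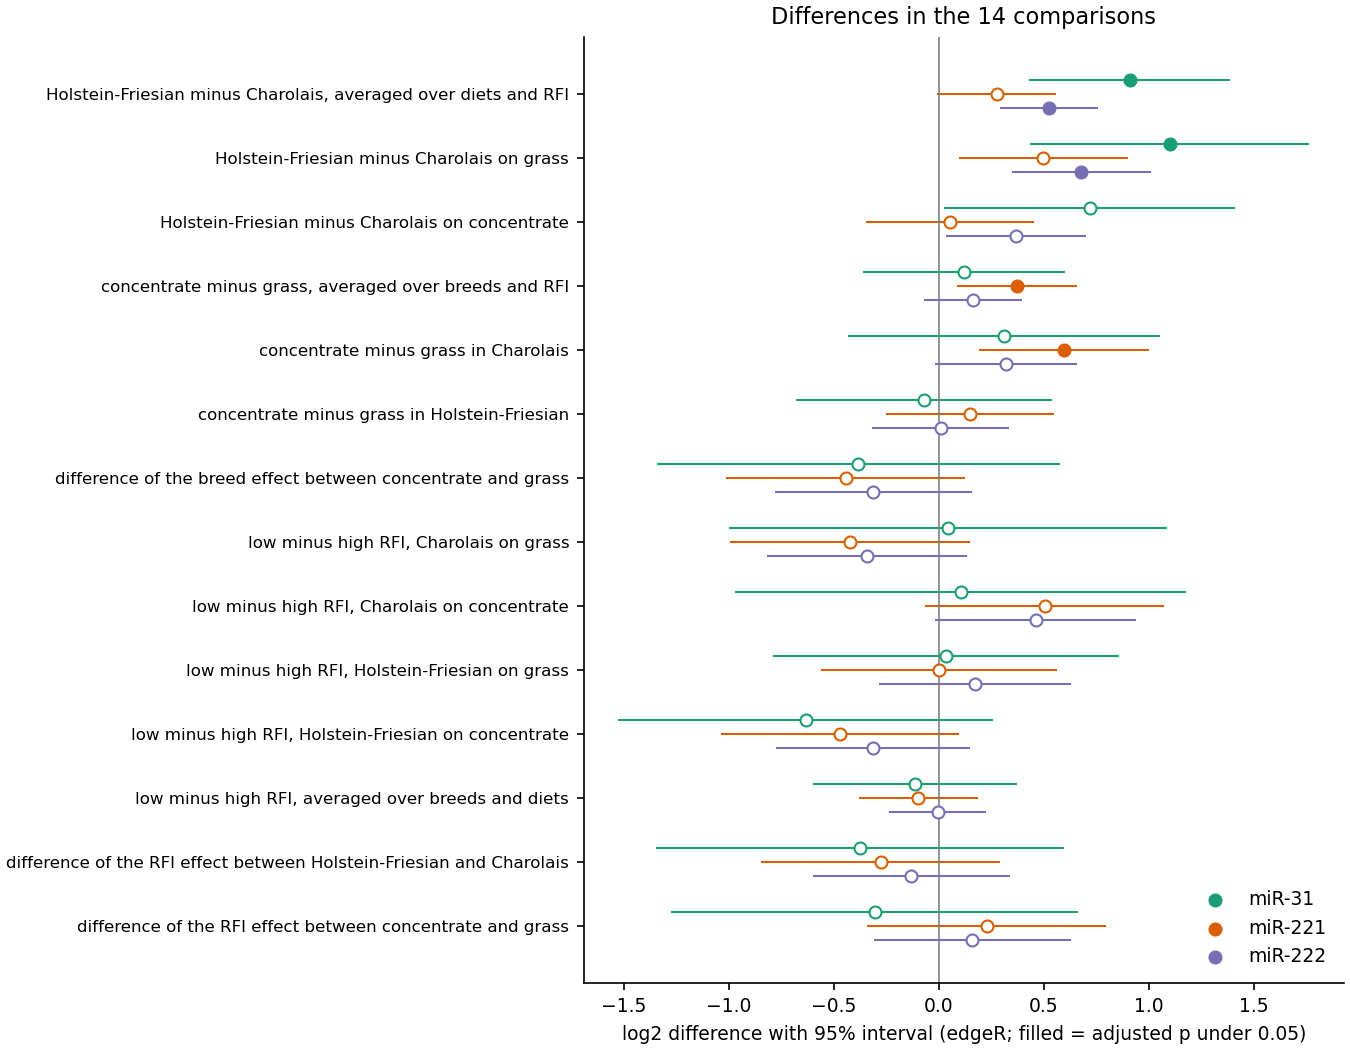
Log2 differences of miR-31, miR-221 and miR-222 in the 14 comparisons with their 95% intervals from the edgeR fit; filled points have an adjusted p under 0.05. The filled points are miR-31 and miR-222 in the breed average and on grass, and miR-221 for concentrate minus grass in the average and in Charolais.

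The diet comparison asked what changed between the concentrate and the grass phase. Here miR-221 was the member called and miR-31 and miR-222 were not. Over both breeds miR-221 ran from 10.6 through a median of 21.8 to 54.6 CPM on concentrate, and from 8.15 through 17.8 to 38.0 CPM on grass. The highest 7 libraries were on concentrate, and 20 of 32 concentrate libraries lay above the grass median. The means were 24.9 CPM ± 11.7 on concentrate and 19.3 ± 8.30 on grass (SD, n = 32 each), a 1.30-fold difference (log2 0.37 ± 0.14, edgeR adjusted p = 0.0354).

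miR-222 averaged 7.12 CPM ± 2.30 on concentrate and 6.42 ± 2.91 on grass (log2 0.17 ± 0.12, edgeR adjusted p = 0.271), although 25 of 32 concentrate libraries lay above the grass median. miR-31 averaged 0.688 CPM ± 0.495 on concentrate and 0.659 ± 0.494 on grass (log2 0.12 ± 0.24, edgeR adjusted p = 0.756). The 1 call among the 3 stands beside 34.0% of the 318 miRNAs called in this comparison and 17.9% called higher on concentrate.

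By breed, the diet difference of miR-221 was called in Charolais steers and not in Holstein-Friesian steers. In Charolais steers it ran from 10.6 through 17.2 to 54.6 CPM on concentrate and from 8.15 through 15.8 to 26.5 CPM on grass. The medians were close, and 5 of 16 concentrate libraries exceeded every grass library. The means were 24.4 CPM ± 13.8 on concentrate and 16.1 ± 5.42 on grass (SD, n = 16 each), a 1.51-fold difference (log2 0.60 ± 0.20, edgeR adjusted p = 0.0257). In Charolais 20.8% of the 318 miRNAs were called and 9.43% were called higher on concentrate, and of the trio 1 of 3. miR-222 was at 6.24 CPM ± 2.13 on concentrate and 4.96 ± 1.75 on grass in Charolais (log2 0.32 ± 0.17, edgeR adjusted p = 0.167), and miR-31 at 0.498 ± 0.339 and 0.416 ± 0.250 CPM (log2 0.31 ± 0.37, edgeR adjusted p = 0.596).

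In Holstein-Friesian steers, where 24.2% of the 318 miRNAs were called, 0 of the 3 were called by edgeR, DESeq2 or limma-voom, with 0 at an unadjusted edgeR p under 0.05. miR-221 averaged 25.3 CPM ± 9.60 on concentrate and 22.5 ± 9.55 on grass (log2 0.15 ± 0.20, edgeR adjusted p = 0.624). miR-222 averaged 8.00 ± 2.17 on concentrate and 7.89 ± 3.14 on grass (log2 0.01 ± 0.16, adjusted p = 0.955), and miR-31 0.878 ± 0.561 and 0.901 ± 0.563 CPM (log2 -0.07 ± 0.30, adjusted p = 0.896). The test of the difference between the breeds is the interaction given above.

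The diet call of miR-221 depended on single libraries and on the scaling. In Charolais it was lost without high-RFI Charolais concentrate replicate 3, low-RFI Charolais concentrate replicate 5 or high-RFI Charolais grass replicate 1, with log2 differences of 0.42 to 0.70 over all libraries left out in turn. The average was lost on leaving out any of 11 libraries. With total counts as library size the difference was 0.06 in the average and 0.33 in Charolais (edgeR adjusted p = 0.817 and 0.403), where the median of all miRNAs moved to -0.24 and -0.19. With the animal as a random block in limma-voom the adjusted p was 0.05005 in the average and 0.05196 in Charolais.

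Some markers of other cell types were called between the diets. Over both breeds 34.0% of the 318 miRNAs were called, and 17.9% were called higher on concentrate. In the average over both breeds, 2 of 2 erythrocyte miRNAs (miR-451 1.30 and miR-144 1.09 on the log2 scale) and 5 of 7 leukocyte miRNAs (0.17 to 0.81) were called higher on concentrate, and 1 of 4 fibroblast miRNAs was called lower (miR-21-5p -0.37). With total counts as library size 0 of the 2 and 0 of the 7 were called in the average by edgeR, with miR-451 at an unadjusted p of 0.0257 and the others above 0.05, and miR-150 (-0.0081) and miR-342 (-0.085) changed sign. Under the same scaling 4 of 4 fibroblast miRNAs were called lower on concentrate (miR-21-5p -0.65), and so was 1 of 2 smooth muscle miRNAs (miR-143 -0.47). In Holstein-Friesian steers, where 24.2% of the 318 miRNAs were called, 0 of 2 erythrocyte miRNAs were called by edgeR, with 0 at an unadjusted p under 0.05. There 2 of 7 leukocyte miRNAs were called higher on concentrate (miR-150 0.44 and miR-342 0.31), and 3 of 4 fibroblast miRNAs were called lower (-0.80 to -0.61). With total counts as library size 0 of the 7 leukocyte miRNAs were called in this breed (miR-150 0.036 and miR-342 -0.008), and only miR-150 lay above 0. The lowest were miR-146a (-0.62) and miR-155 (-0.57), with unadjusted edgeR p of 0.0344 and 0.0199. Under that scaling 4 of 4 fibroblast and 1 of 2 smooth muscle miRNAs were called lower.

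In Charolais 20.8% of the 318 miRNAs were called between the diets, and 9.43% were called higher on concentrate. Both erythrocyte miRNAs were called higher (miR-451 1.76 and miR-144 1.68 on the log2 scale). Their summed level ran from 680 through 4793 to 49575 CPM on concentrate and from 300.2 through 1694 to 10427 CPM on grass. Of 7 leukocyte miRNAs 3 were called higher (miR-223 1.24, miR-142-5p 1.06 and miR-142-3p 0.96), with a summed level of 451 through 683 to 2610 CPM on concentrate and 288 through 454 to 1376 CPM on grass. With total counts as library size these kept their direction and were not called (miR-451 1.40, miR-223 0.98 and miR-142-3p 0.71, edgeR adjusted p = 0.0892, 0.0892 and 0.139). Fibroblast, smooth muscle and endothelial markers had 0 calls by edgeR in this comparison, with 0 at an unadjusted p under 0.05. The part of these cell types in the diet difference of miR-221 was not tested.

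In the 5 steers sampled on both diets, which are 4 Charolais and 1 Holstein-Friesian, the mean change of each member was smaller than its SD between animals. miR-221 was at 40.7, 14.9, 25.4, 17.1 and 20.3 CPM on concentrate, against 19.4, 9.84, 26.5, 12.9 and 29.3 CPM on grass in the same animals. It was higher on concentrate in 3 of 5, with a mean log2 difference of 0.29 ± 0.61 (SD, exact two-sided sign-flip permutation p = 0.4375). miR-222 was at 9.65, 5.48, 5.47, 6.42 and 8.94 CPM on concentrate, against 7.83, 4.46, 5.62, 3.11 and 10.3 CPM on grass, also higher in 3 of 5 (mean 0.27 ± 0.46, exact permutation p = 0.25). miR-31 was higher on concentrate in 2 of 5 (mean -0.29 ± 0.76, exact permutation p = 0.5). With 5 pairs the smallest p this test can give is 0.0625, so it could not have called any member. Adjusted over the 3 miRNAs each p was 0.5. The Charolais steer listed first was in the high-RFI class on grass and in the low-RFI class on concentrate.

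Low-RFI steers were compared with high-RFI steers to ask whether the trio goes with feed efficiency. None of the 3 was called in any breed and diet or in the average by edgeR, DESeq2 or limma-voom, and none had an unadjusted edgeR p under 0.05. The share of the 318 miRNAs called was 0% in each of these comparisons, with 10 to 34 miRNAs at an unadjusted edgeR p under 0.05. The estimates of miR-221 and miR-222 were below 0 in Holstein-Friesian steers on concentrate and Charolais steers on grass, and above 0 in Charolais steers on concentrate.

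In Holstein-Friesian steers on concentrate, miR-221 ran from 16.2 through 21.3 to 28.6 CPM in low-RFI steers and from 15.8 through 23.8 to 49.7 CPM in high-RFI steers. Of 8 low-RFI libraries 1 lay above the high-RFI median, and the same count held for miR-222 and miR-31. The log2 differences were -0.47 ± 0.28 for miR-221, -0.31 ± 0.23 for miR-222 and -0.63 ± 0.45 for miR-31 (edgeR adjusted p = 0.578, 0.657 and 0.631).

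In Charolais steers on concentrate the values went the other way for miR-221 and miR-222. miR-221 ran from 13.1 through 25.9 to 54.6 CPM in low-RFI steers and from 10.6 through 17.0 to 48.6 CPM in high-RFI steers, and miR-222 from 4.79 through 6.53 to 10.4 CPM in low-RFI steers and from 3.01 through 5.39 to 7.03 CPM in high-RFI steers. The low-RFI group lay above the high-RFI median in 5 of 8 libraries for miR-221 and in 6 of 8 for miR-222. The log2 differences were 0.51 ± 0.28 for miR-221, 0.46 ± 0.24 for miR-222 and 0.10 ± 0.54 for miR-31 (edgeR adjusted p = 0.861, 0.861 and 0.985).

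On grass, low-RFI Charolais steers had log2 differences from high-RFI ones of -0.42 ± 0.29 for miR-221, -0.34 ± 0.24 for miR-222 and 0.04 ± 0.52 for miR-31 (edgeR adjusted p = 0.860, 0.860 and 0.982). In Holstein-Friesian steers on grass the differences were 0.00083 ± 0.28, 0.17 ± 0.23 and 0.03 ± 0.41 (edgeR adjusted p = 0.998 for each). Averaged over breeds and diets they were -0.10 ± 0.14 for miR-221, -0.01 ± 0.12 for miR-222 and -0.11 ± 0.24 for miR-31, with 95% intervals of -0.38 to 0.19, -0.24 to 0.23 and -0.60 to 0.37. The RFI difference was not shown to depend on breed or on diet for any of the 3 (edgeR adjusted p = 0.782 to 0.905 between breeds and 0.973 between diets), and in both of these comparisons 0% of the 318 miRNAs were called.

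miR-221 and miR-222, which come from neighbouring genes, varied together across steers. Across the 32 grass libraries, each a different steer and centred on its group, Pearson's r was 0.81 and Spearman's rho 0.82. Both had a permutation p of 1e-05, the smallest that 100000 permutations can give, which is 6e-05 after adjustment over 6 relations. Across the 32 concentrate libraries r was 0.67 and rho 0.65 (adjusted permutation p = 0.00018 and 0.00024). Without the 2 libraries farthest from the median of miR-221, r was 0.78 on grass and 0.64 on concentrate.

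miR-31 followed the pair on concentrate and not by the test on grass. On concentrate its r was 0.53 with miR-221 and 0.49 with miR-222 (rho 0.52 and 0.50, adjusted permutation p = 0.00332 and 0.00601 for r, and 0.00444 and 0.00628 for rho), and r was 0.52 and 0.46 without the 2 farthest libraries. On grass r was 0.28 with miR-221 and 0.34 with miR-222 (rho 0.22 and 0.25, adjusted permutation p = 0.117 and 0.0662 for r, and 0.234 and 0.193 for rho), falling to 0.10 and 0.13 without the 2 farthest. With total counts as library size the relations on grass had r of 0.51 and 0.54 (adjusted permutation p = 0.00265 and 0.00178). Whether the relations differ between the diets was not tested, and all values share their library's scaling factor.

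miR-221 outnumbered miR-222 in every library. A library held 3.31 miR-221 reads for each miR-222 read on average (SD 0.9752, n = 64), from 1.68 to 7.31. There were 3.05 ± 0.774 miR-221 reads per miR-222 read in Holstein-Friesian steers and 3.56 ± 1.10 in Charolais steers (SD, n = 32 each). The log2 ratio of miR-222 to miR-221, which needs no scaling between libraries, was -1.57 ± 0.36 in Holstein-Friesian steers and -1.77 ± 0.41 in Charolais steers. The difference of 0.21 had a two-sided permutation p of 0.0343 and did not pass adjustment over the 2 comparisons (0.0686). By diet the log2 ratio was -1.74 ± 0.44 on concentrate and -1.60 ± 0.34 on grass (permutation p = 0.13).

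**Figure D3:**
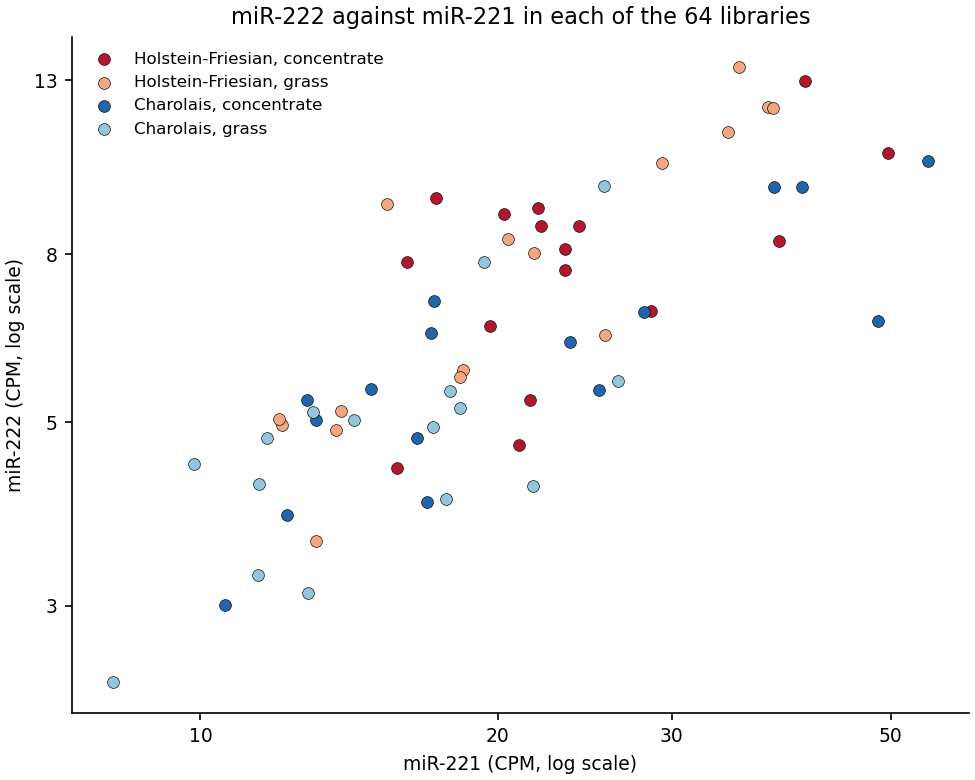
miR-222 against miR-221 in CPM on log axes, with a point for each of the 64 libraries coloured by breed and diet. The points lie along a common band, and the 6 highest miR-222 libraries are Holstein-Friesian.

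The miRNAs that varied most like each member across the 64 libraries, after centring on the 8 groups, were not the same for the 3. These r values are descriptions over libraries that share depth and scaling. For miR-221 they were the leukocyte miRNA miR-142-3p (r = 0.81), miR-103 (0.80), the leukocyte miR-142-5p (0.77) and miR-18a (0.76). miR-222 was 6th at 0.74 and the erythrocyte miR-451 14th at 0.69. For miR-222 they were miR-221 (0.74), miR-155, which is abundant in activated lymphocytes (0.74), let-7i (0.66) and miR-204 (0.64), and miR-451 was 56th at 0.32.

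For miR-31 they were miR-20a (0.52), miR-2285k (0.51), miR-204 (0.48) and miR-23b-3p (0.46). miR-221 was 10th for miR-31 at 0.42 and miR-222 11th at 0.41. miR-206, a miRNA of regenerating and immature fibres, had an r of 0.13 with miR-31, -0.13 with miR-221 and 0.04 with miR-222.

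Other miRNAs that hold back myoblasts were set beside the trio. Of 5 listed, miR-125b, miR-155, miR-23a and miR-199a-3p were tested, and miR-489, a miRNA of quiescent mouse satellite cells, was not, with 20 counts over all libraries. On grass 3 of the 4 were higher in Holstein-Friesian than in Charolais steers and 0 were lower: miR-199a-3p by 0.65 ± 0.17, miR-155 by 0.62 ± 0.17 and miR-23a by 0.52 ± 0.15 on the log2 scale (edgeR adjusted p = 0.00326, 0.00400 and 0.00608). Of all 318 miRNAs 30.2% were called in this comparison, and 14.8% were called higher. The median log2 difference of the 4 was 0.57, beside 0.01 over all 318. In the breed average 2 of 4 were higher, miR-155 (0.44 ± 0.12) and miR-23a (0.37 ± 0.10), with a median of 0.33 beside -0.02 over all 318, of which 21.7% were called and 11.0% were called higher. miR-199a-3p is also on the fibroblast list and miR-155 on the leukocyte list.

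On concentrate 0 of the 4 differed between the breeds by edgeR, with 0 at an unadjusted p under 0.05 (median 0.11 beside 0.01 over all 318, of which 1.57% were called). Between diets, 0 of the 4 were called in Charolais and 1 was lower on concentrate in Holstein-Friesian steers, miR-199a-3p at -0.61 ± 0.17 (edgeR adjusted p = 0.00383), which became 2 of 4 with total counts as library size. Of the 318 miRNAs, 20.8% were called between the diets in Charolais and 24.2% in Holstein-Friesian steers.

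The miRNAs listed as promoters of myoblast differentiation moved in both directions between the breeds. They were listed by name, miR-133a and miR-133b among them, and what each does in these steers was not tested. Of 17 listed, 15 were tested. On grass 4 were higher in Holstein-Friesian than in Charolais steers: miR-206, which acts on Pax7 in mouse satellite cells (0.81 ± 0.22), miR-214 (0.64 ± 0.21), miR-24-3p (0.44 ± 0.12) and miR-27b, which acts on Pax3 in the mouse (0.21 ± 0.08). A further 5 were lower, among them miR-486 (-0.58 ± 0.13), miR-29c (-0.46 ± 0.11), miR-133a (-0.43 ± 0.15) and miR-378 (-0.41 ± 0.12), with edgeR adjusted p from 0.00153 to 0.0173. The median log2 difference of the 15 was -0.21 beside 0.01 over all 318, of which 30.2% were called and 14.8% were called higher. The 5 lower calls became 1 with total counts as library size, under which the median of all miRNAs in this comparison moved to 0.20. The fibroblast list shares miR-214.

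In the breed average 3 of the 15 were higher (miR-206 0.89, miR-24-3p 0.32 and miR-27b 0.17) and 3 lower (miR-486 -0.46, miR-29c -0.26 and miR-29a -0.19). The median was -0.14 beside -0.02 over all 318, of which 21.7% were called and 11.0% were called higher. The promoter calls became 4 higher and 1 lower with total counts as library size, where the median of all 318 moved to 0.12. On concentrate, where 1.57% of the 318 were called, 1 promoter was called: miR-206, higher in Holstein-Friesian steers at 0.97 ± 0.22 (edgeR adjusted p = 0.00485). The call was lost when the repeat steers' concentrate libraries were left out. miR-424-5p was the 1 promoter called between the diets in Charolais, at -0.85 ± 0.15 (edgeR adjusted p = 2.83e-05), where 20.8% of the 318 were called. In Holstein-Friesian steers, where 24.2% of the 318 were called, 3 promoters were higher on concentrate (miR-1 0.78, miR-29b 0.59 and miR-29c 0.49) and 2 lower (miR-424-5p -0.87 and miR-214 -0.62). These became 1 higher and 6 lower with total counts as library size, where the median of all 318 moved to -0.29. Over both breeds 3 promoters were higher on concentrate (miR-1 0.47, miR-29b 0.45 and miR-29c 0.28) and 3 lower (miR-424-5p -0.86, miR-181a -0.18 and miR-27b -0.17). Of the 318, 34.0% were called in this comparison and 17.9% were called higher. The promoter calls became 0 higher and 8 lower with total counts as library size, where the median of all 318 moved to -0.24. Between RFI classes 0 of the 4 brakes and 0 of the 15 promoters were called by edgeR in any breed and diet, with 0 at an unadjusted p under 0.05.

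**Figure D4:**
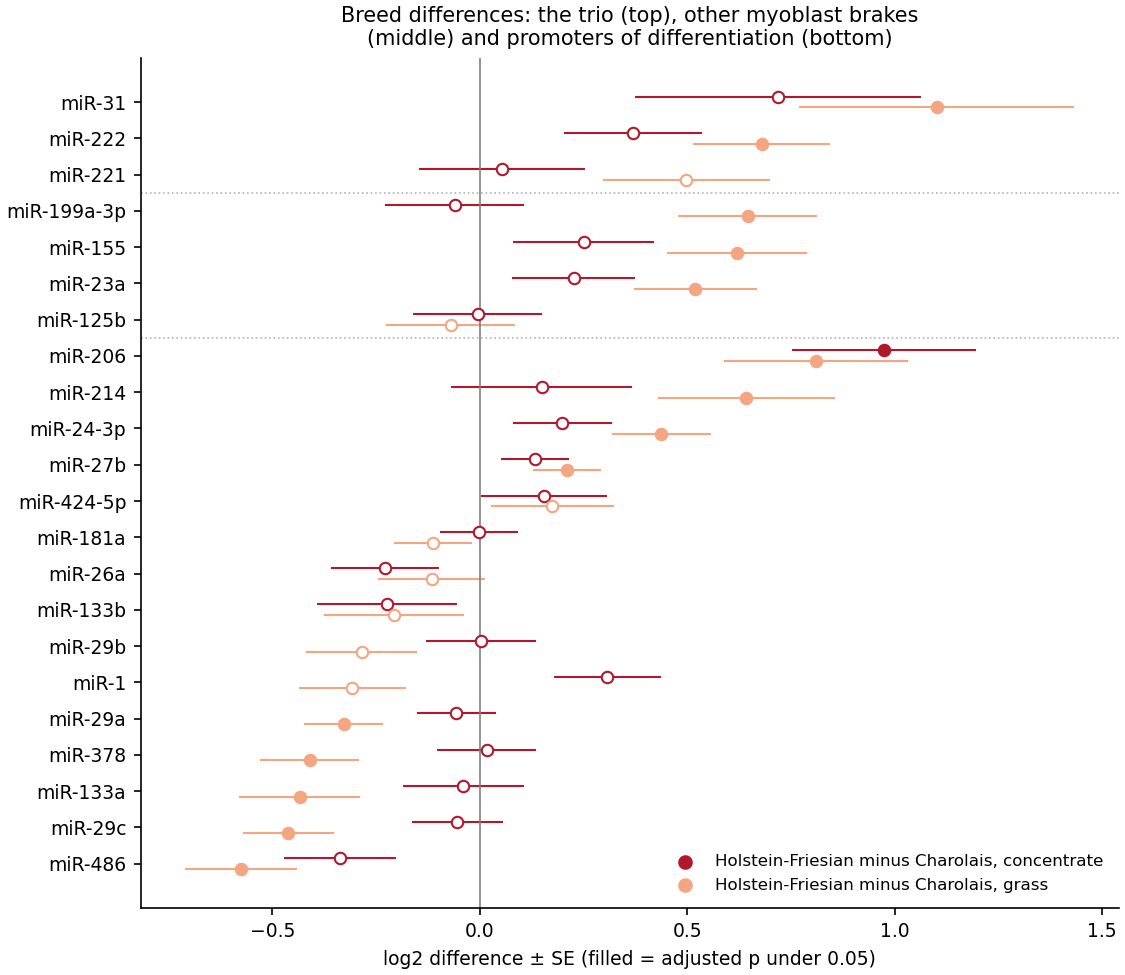
Log2 differences ± SE of Holstein-Friesian minus Charolais on concentrate and on grass. They are shown for miR-31, miR-222 and miR-221 (top), 4 other miRNAs that hold back myoblasts (middle) and 15 listed as promoters of differentiation (bottom). Filled points have an edgeR adjusted p under 0.05. On grass the trio lies between 0.50 and 1.10, and the promoters spread from -0.58 to 0.81.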

How the data were processed

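MicroRNAs were measured in 64 libraries of skeletal muscle. The authors deposited 1 table of estimated counts, not normalized, for 1030 names. Per the labels' protocols, a Qiagen RNeasy Plus Universal kit was used for the RNA and an Illumina TruSeq stranded kit for the libraries. The submitters' processing notes name FastQC 0.11.8, cutadapt 2.6, R 3.4, edgeR 3.5 and the build ARS-UCD 1.2. The selection of small RNA, the aligner and the counter are points not given in the sources used here. Each column matched 1 library by animal number and phase, with 0 columns left over. Values were rounded before testing: 61 names were fractional (over 0.001 from a whole number), 0 of them members. In addition 1 name with empty cells was left out.

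edgeR 4.0.16 (R 4.3.3) was fitted to 8 group means with TMM scaling, filterByExpr and robust quasi-likelihood F tests (56 residual degrees of freedom). The names not tested held 0.00592% of the counts. Each of 14 comparisons was adjusted by Benjamini-Hochberg over all 318 miRNAs and called at 0.05, and an adjusted p with no tool named is from this fit. Ratios and correlations were tested with 100000 permutations, correlations on log2 CPM with a prior count of 2. The fit was tested on simulated data that held a breed difference only, with 309 miRNAs tested. In the breed average it called 83.5% of those with a true log2 difference of 0.5, 98.0% at 1 and 0.877% at 0. No RFI difference and no repeated steers were simulated. The alternatives were other scalings, filters and tools (DESeq2 1.42.0, limma 3.58.1), an animal block, and libraries left out.

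The members and lists were chosen with earlier results of these data known. Named miRNAs are the 3 members, the 4 most correlated with each, and the list members called, up to 4 per direction. Within a group, and within a diet, the replicates were separate steers. Comparisons that span both diets hold both libraries of the 5 repeated animals, with no animal term in the main fit. In these comparisons n counts libraries. Libraries were paired by the labels' animal numbers: deviations from group means correlated at 0.165, 0.398, 0.599, 0.288 and -0.111 within the 5 animals, and at 0.392 in the fit with the animal as a random block.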

Additional observations from a re-analysis of the deposited data

Results flagged for a closer look

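A single library, high-RFI Charolais concentrate replicate 3, stood apart from the other 7 of its group in 2 of the 3 miRNAs. It had 1.2 CPM of miR-31, against a next-highest value of 0.543 CPM, and 48.6 CPM of miR-221, against 25.4 CPM. In each case the gap made up more than Dixon's 95% limit of the range of the 8 libraries (0.547 and 0.612 of the range). Chance alone marks about 1 in 20 groups in this way, and 8 groups were looked at for each of the 3 miRNAs. In miR-222 the same library did not stand apart. Without it the difference of low from high RFI in Charolais on concentrate was still not called for any of the 3, and the breed average of miR-221 became called (edgeR adjusted p = 0.0489, against 0.0489 to 0.297 over all libraries left out in turn).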

How the results depend on the processing

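miR-222 kept its breed calls in the average and on grass under every alternative run for it, with each of 64 libraries left out. miR-31 also kept its breed call in the average under those run for it. Apart from the fit with every miRNA with a count, these used the filter that had admitted miR-31 through Holstein-Friesian libraries only. Their agreement is therefore no independent support for miR-31. miR-31 could not be tested with a mean CPM of at least 10, nor miR-222, since both lie below it. The call of miR-31 on grass was lost in limma-voom (0.87, adjusted p = 0.0593) and with the animal as a random replicate block (0.87). miR-221 became called in the breed average with upper-quartile scaling (0.38) and total counts without miR-10b (0.49), and on grass with DESeq2 size factors (0.52), upper-quartile scaling (0.63), total counts without miR-10b (0.73), a mean CPM of at least 10 (0.55), the DESeq2 test (0.52), no concentrate libraries of repeated steers (0.53) and only the groups compared (0.49). Its diet call in the average was lost with total-count scaling (0.062), upper-quartile scaling (0.31), total counts without miR-10b (0.32), every miRNA with a count (0.33), a mean CPM of at least 10 (0.35), limma-voom (0.34) and the random replicate block (0.33), and in Charolais with total-count scaling (0.33), total counts without miR-10b (0.57), every miRNA with a count (0.56), limma-voom (0.48) and the random replicate block (0.49). The cause was not tested. Total counts without miR-10b and the fit without the 2 libraries highest in miR-143 were chosen after seeing the data.

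Signs turned only where nothing was called. For concentrate minus grass with total-count scaling the differences were -0.14 for miR-222 and -0.14 for miR-31 in the average and -0.21 for miR-221 in Holstein-Friesian steers. In that breed miR-222 turned to -0.0059 (DESeq2 size factors), -0.37 (total counts), -0.086 (upper quartile), -0.069 (without miR-10b), -0.054 (every miRNA with a count), -0.0065 (DESeq2) and -0.012 (no repeated steers), and miR-31 to 0.029 (limma-voom), 0.00075 (random replicate block) and 0.011 (without the 2 libraries highest in miR-143). For low minus high RFI, miR-31 turned to -0.035 (total counts), -0.079 (without miR-10b) and -0.048 (fixed replicate block) in Charolais on grass, and to -0.062 (upper quartile) and -0.14 (no repeated steers) in Charolais on concentrate. In Holstein-Friesian steers on grass, miR-221 turned to -0.075 (DESeq2 size factors), -0.047 (total counts), -0.053 (every miRNA with a count), -0.045 (mean CPM of at least 10), -0.079 (DESeq2), -0.038 (limma-voom), -0.074 (random replicate block), -0.10 (no repeated steers), -0.095 (without the 2 libraries highest in miR-143) and -0.014 (only the groups compared), and miR-31 to -0.065 (DESeq2 size factors), -0.042 (total counts), -0.045 (every miRNA with a count), -0.095 (DESeq2), -0.17 (fixed replicate block), -0.083 (no repeated steers) and -0.23 (without the 2 libraries highest in miR-143). The RFI average of miR-222 turned to 0.010 (upper quartile), 0.0042 (limma-voom), 0.0082 (random replicate block) and 0.018 (fixed replicate block), and its RFI difference between breeds to 0.091 (upper quartile). The correlations of miR-31 on grass passed the test with total-count scaling, at 0.51 with miR-221 and 0.54 with miR-222.

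Leaving out 1 library at a time, miR-221 ran from 0.22 to 0.36 in the breed average (called without high-RFI Charolais concentrate replicate 3), 0.40 to 0.58 on grass (called in 19 of 64 fits), -0.061 to 0.23 on concentrate, 0.29 to 0.46 for diet in the average and 0.42 to 0.70 in Charolais, and -0.22 to 0.079 for RFI in Holstein-Friesian steers on grass. miR-222 ran from 0.29 to 0.44 for diet in Charolais (called without high-RFI Charolais grass replicate 4, adjusted p = 0.0446), -0.048 to 0.12 in Holstein-Friesian steers, -0.072 to 0.23 for RFI in that breed on grass and -0.067 to 0.0025 in the average. miR-31 ran from -0.16 to 0.043 for diet in Holstein-Friesian steers, and for RFI from -0.19 to 0.25 in Charolais on grass, -0.18 to 0.52 in Charolais on concentrate and -0.25 to 0.082 in Holstein-Friesian steers on grass. Of the other results under the alternatives run, 432 kept direction and call. Depth limits miR-31 most, with a median of 4 counts.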
